A study of Mus musculus with 4 samples.

Results

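Granzymes are serine proteases stored in the granules of cytotoxic lymphocytes, and perforin is the pore-forming protein that lets them into the target cell. The 9 genes described here, Prf1, Gzma, Gzmb, Gzmc, Gzmd, Gzme, Gzmf, Gzmk and Gzmm, were taken by symbol from the 31053 gene rows of single-cell RNA-seq count matrices of mouse salivary gland stroma. The labels name the submandibular gland as the tissue, while their protocol speaks of submandibular and sublingual glands being harvested, so sublingual cells may be included. They were followed in natural killer (NK) and type 1 innate lymphoid (ILC1) cells and in CD8 and CD4 T cells. UMIs (unique molecular identifiers, each standing for 1 captured transcript) were found for 7 of the 9 genes, and Gzmd and Gzme had 0 in all cells. Prf1, Gzma, Gzmb and Gzmc carried nearly all of the signal in lymphocytes, with Gzmk added in CD8 T cells.

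All 4 libraries came from female C57BL6/J mice, were depleted of EpCAM-positive epithelial and Ter119-positive red cells with beads, and had dead cells removed. In the 2 deligated libraries (mice aged 14 weeks) a metal clip had closed the main ducts for 14 days and had been taken off 5 days before harvest. The 2 homeostatic libraries came from unoperated mice aged 12 weeks, so age and surgery change together with the group. The labels speak of 2 glands per preparation but do not say whether the libraries of a group came from separate animals, so the p-values below measure only the spread between these libraries, which may be technical. Below, 4 values in a row are always deligated 1, deligated 2, homeostatic 1 and homeostatic 2.

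Perforin forms pores in the membrane of the target, and the granzymes then cut proteins inside it. Granzyme B cuts after aspartate and starts apoptosis, granzymes A and K are tryptases that cut after basic residues, and granzyme M cuts after methionine or leucine. Granzymes C, D, E and F belong to a rodent cluster beside Gzmb whose substrates are less well known. The salivary gland holds a large population of tissue-resident, CD49a-positive NK and ILC1 cells beside circulating NK cells, and serpins inside cytotoxic cells guard them against their own granzymes.

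The members lie on 3 chromosomes (GRCm38, GENCODE M21 gene models). Gzmb (chr14:56258838-56262260), Gzmc (chr14:56231441-56234656), Gzmf (chr14:56205263-56211417), Gzmd (chr14:56129556-56132608) and Gzme (chr14:56117626-56120625) share the minus strand of chromosome 14. Gzma (chr13:113093825-113100981) and Gzmk (chr13:113171608-113225908) lie on the minus strand of chromosome 13. Prf1 (chr10:61297833-61304680) and Gzmm (chr10:79689020-79695261) lie on the plus strand of chromosome 10. The Gzmk model has 52912 bases of intron and overlaps Esm1 on the opposite strand, and the Gzmf model overlaps Gm4022 on the opposite strand. Of the 50-base windows in their transcripts, 21.86% in Gzmd, 20.65% in Gzme, 7.36% in Gzmf and 4.14% in Gzmc also occur in another granzyme gene, while the other members share 0. How reads from such stretches were counted is not given in the sources used here, so the counts of these 4 genes are uncertain.

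The 250 bases before the transcription start are shown for the members with high counts and for Gzme, whose window is 81.8% identical to that of Gzmc although no Gzme UMI was found (RefSeq, GRCm38.p6). They are read 5′ to 3′ on the gene's strand: Gzmb (chr14:56262335-56262584), Gzmc (chr14:56234658-56234907), Gzme (chr14:56120626-56120875), Gzma (chr13:113100982-113101231), all on the minus strand, and Prf1 (chr10:61297586-61297835) on the plus strand. Capitals mark letters matched on either strand by a T-box (GGTGTG), RUNX (TGTGGT), AP-1 (TGANTCA), STAT (TTCNNNGAA) or ETS (AGGAAG) motif.
Gzmb: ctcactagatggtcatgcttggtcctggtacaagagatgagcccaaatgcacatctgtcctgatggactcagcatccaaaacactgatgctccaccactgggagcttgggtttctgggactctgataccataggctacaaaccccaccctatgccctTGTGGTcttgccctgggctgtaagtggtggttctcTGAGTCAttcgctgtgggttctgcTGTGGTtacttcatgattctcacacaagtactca
Gzmc: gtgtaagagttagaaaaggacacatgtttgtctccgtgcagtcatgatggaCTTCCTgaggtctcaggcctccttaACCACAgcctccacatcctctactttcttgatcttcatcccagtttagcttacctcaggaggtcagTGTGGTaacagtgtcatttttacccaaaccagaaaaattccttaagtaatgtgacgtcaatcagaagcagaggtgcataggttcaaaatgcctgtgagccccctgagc
Gzme: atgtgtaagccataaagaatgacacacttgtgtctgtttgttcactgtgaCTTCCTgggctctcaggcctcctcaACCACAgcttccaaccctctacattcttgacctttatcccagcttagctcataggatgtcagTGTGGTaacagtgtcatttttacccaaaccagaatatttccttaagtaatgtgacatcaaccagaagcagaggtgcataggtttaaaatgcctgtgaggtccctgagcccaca
Gzma: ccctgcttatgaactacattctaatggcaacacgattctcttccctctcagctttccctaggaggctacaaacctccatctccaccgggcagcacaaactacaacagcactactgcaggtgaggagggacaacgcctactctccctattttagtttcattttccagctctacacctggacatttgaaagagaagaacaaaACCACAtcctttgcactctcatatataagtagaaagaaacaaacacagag
Prf1: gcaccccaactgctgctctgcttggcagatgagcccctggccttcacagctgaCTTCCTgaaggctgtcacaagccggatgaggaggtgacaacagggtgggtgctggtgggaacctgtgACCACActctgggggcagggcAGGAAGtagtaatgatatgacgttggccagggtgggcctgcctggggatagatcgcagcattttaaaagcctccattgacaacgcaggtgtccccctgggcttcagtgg

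Of 32536 promoter windows of the same length, 16.3% hold the T-box letters, 14.0% RUNX, 6.7% AP-1, 7.0% STAT and 29.6% ETS. The RUNX letters occur at 2 places in the Gzmb, Gzmc and Gzme windows and at 1 in those of Gzma and Prf1. The AP-1 letters occur in the Gzmb window among those printed, and the ETS letters in those of Gzmc, Gzme and Prf1. The Gzmd window is 81.3% and the Gzmf window 71.5% identical to that of Gzmc, against 50.2% for Gzmb and Gzmc. These matches describe the letters and were not tied to the counts.

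The libraries held 4725, 8713, 12854 and 13266 barcodes with median depths of 6075, 5278, 2912.5 and 2765.5 UMIs, and 4357 to 10900 cells per library were kept. Cells were clustered with every granzyme gene and Prf1 left out. The NK/innate lymphoid-like class numbered 886, 2085, 1005 and 1049 cells and the T cell-like class 600, 816, 159 and 160. Within these classes median depths lay between 5040 and 6258 UMIs in all libraries. Ncr1, the NKp46 receptor, was found in 88.2 to 90.5% of NK/innate lymphoid-like cells and Cd3e in at most 1.6%, and summed T cell markers (11 genes) stood there at 662 to 811 CPM (UMIs scaled to a common library total), against 5388 to 6465 in the T cell-like class. Pairs of libraries shared 14 to 54 barcodes, of which 0 to 3 were lymphocytes of these classes. The deligated matrices were made with Cell Ranger 6.0.1 and the homeostatic ones with 7.0.0, per the file headers. In each of the 5 lymphocyte classes compared below, log2 fold changes fell with a gene's total intron length (Spearman's rho across genes between -0.57 and -0.62, genes not being independent), so the part of any deligated-to-homeostatic difference that comes with the software version cannot be told apart from the part that comes with the group.

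Across the whole NK/innate lymphoid-like class, Gzmb and Gzmc were found in most cells, Prf1 in somewhat more cells than not, and Gzma in a small, highly loaded subset. Gzmb was detected in 67.8, 81.3, 62.0 and 61.4% of cells, and after each cell was thinned to 1000 UMIs in 48.6, 61.5, 44.6 and 45.7%. Gzmc was detected in 61.6, 75.2, 59.4 and 60.6% (thinned, 42.9, 59.0, 42.0 and 42.8%). For both genes deligated library 2 stood above the other 3 libraries, which lay close together. Prf1 was detected in 58.0, 55.9, 56.1 and 55.1% (thinned, 15.1, 15.4, 15.3 and 14.7%), nearly the same share in every library. Gzma was detected in 17.4, 16.5, 17.8 and 16.4% (thinned, 13.1, 11.6, 13.0 and 9.9%), and the 5% of cells with the most Gzma held 76.0 to 78.5% of its UMIs. A Gzma-positive cell carried a median of 13, 12.5, 10 and 8 Gzma UMIs. Exact 95% intervals of these shares spanned at most 6.6 percentage points and, like all intervals here, cover counting error only.

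Endothelial-like cells, which should lack these genes, were read as a background. Whether the member UMIs in them came from free RNA was not tested. There Gzmb was detected in 1.37, 11.42, 1.05 and 0.43% of cells, Gzmc in 2.05, 10.37, 1.42 and 0.66%, Gzma in 0.74, 3.05, 0.37 and 0.17% and Prf1 in 0.53, 1.15, 0.03 and 0.11%, at median depths of 5839, 4455, 3664 and 3670 UMIs. The background of all 4 genes was highest in deligated library 2, the library with the highest Gzmb and Gzmc shares in NK/innate lymphoid-like cells. Its part in those shares was not tested. After thinning, the endothelial share of Gzmb was 0.37, 2.74, 0.38 and 0.15%, against 44.6 to 61.5% of NK/innate lymphoid-like cells. CD4 T cells of homeostatic 2 and the Il17a-led T cell-like cluster described below had thinned Gzmb shares at or near this background in some libraries.

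Sub-clusters of the NK class, made separately in each group, separated the members clearly. A resident-type group (588, 1642, 614 and 698 cells) was named from Itga1 (CD49a), Cxcr6, Itgae, Rgs1 and other markers. A circulating-type group (234, 295, 261 and 248 cells) was named from 3 markers only, among them Klf2 and Zeb2. Its markers S1pr5, Klrg1 and Cma1 were near 0 (at most 16.3 CPM), and Itga1 was still found in 43.3 to 52.99% of its cells. Itgam, also listed as a circulating-type marker, ran the other way. It stood at 49.2, 53.3, 30.9 and 31.3 CPM in resident-type and 15.15, 34.1, 16.9 and 14.3 CPM in circulating-type cells. Cd160, listed as a resident-type marker, passed the marker rule in the circulating-type group. Another group (62, 132, 107 and 90 cells), led by Il7r, matched too few markers for a name. The borders between these groups were not sharp: sub-clusters computed in double precision held 593, 1676, 600 and 681 resident-type and 231, 269, 260 and 244 circulating-type cells. Under the stricter cell filter the circulating-type group held 238, 292, 384 and 348 cells, so it took in many more homeostatic cells.

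In resident-type cells, Gzmb was detected in 87.6, 91.05, 81.8 and 80.95% and Gzmc in 81.8, 85.9, 77.4 and 79.8%. In circulating-type cells of the same libraries the shares were 30.8, 43.4, 26.1 and 17.3% for Gzmb and 16.2, 23.4, 16.1 and 10.1% for Gzmc, so the groups did not overlap. Gzma ran the other way, with 9.01, 12.4, 8.47 and 7.74% of resident-type and 41.03, 42.7, 44.06 and 45.97% of circulating-type cells. Thinned shares kept this order, with Gzma in 5.16 to 8.65% of resident-type and 26.2 to 32.2% of circulating-type cells. Prf1 was found in 55.95, 55.3, 54.4 and 56.3% of resident-type and 71.4, 64.1, 64.4 and 58.9% of circulating-type cells. The few Gzma-positive resident-type cells held a median of 18, 15.5, 24 and 17.5 Gzma UMIs, against 10, 11, 8 and 6 in the circulating-type cells. The Il7r-led cells had Gzmc in 43.5, 55.3, 59.8 and 52.2%, Gzmb in 20.97, 43.2, 37.4 and 31.1% and Gzma in 6.45, 9.09, 9.35 and 1.11%. These differences between groups of cells from the same libraries are given as descriptions, without a test.

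**Figure D1:**
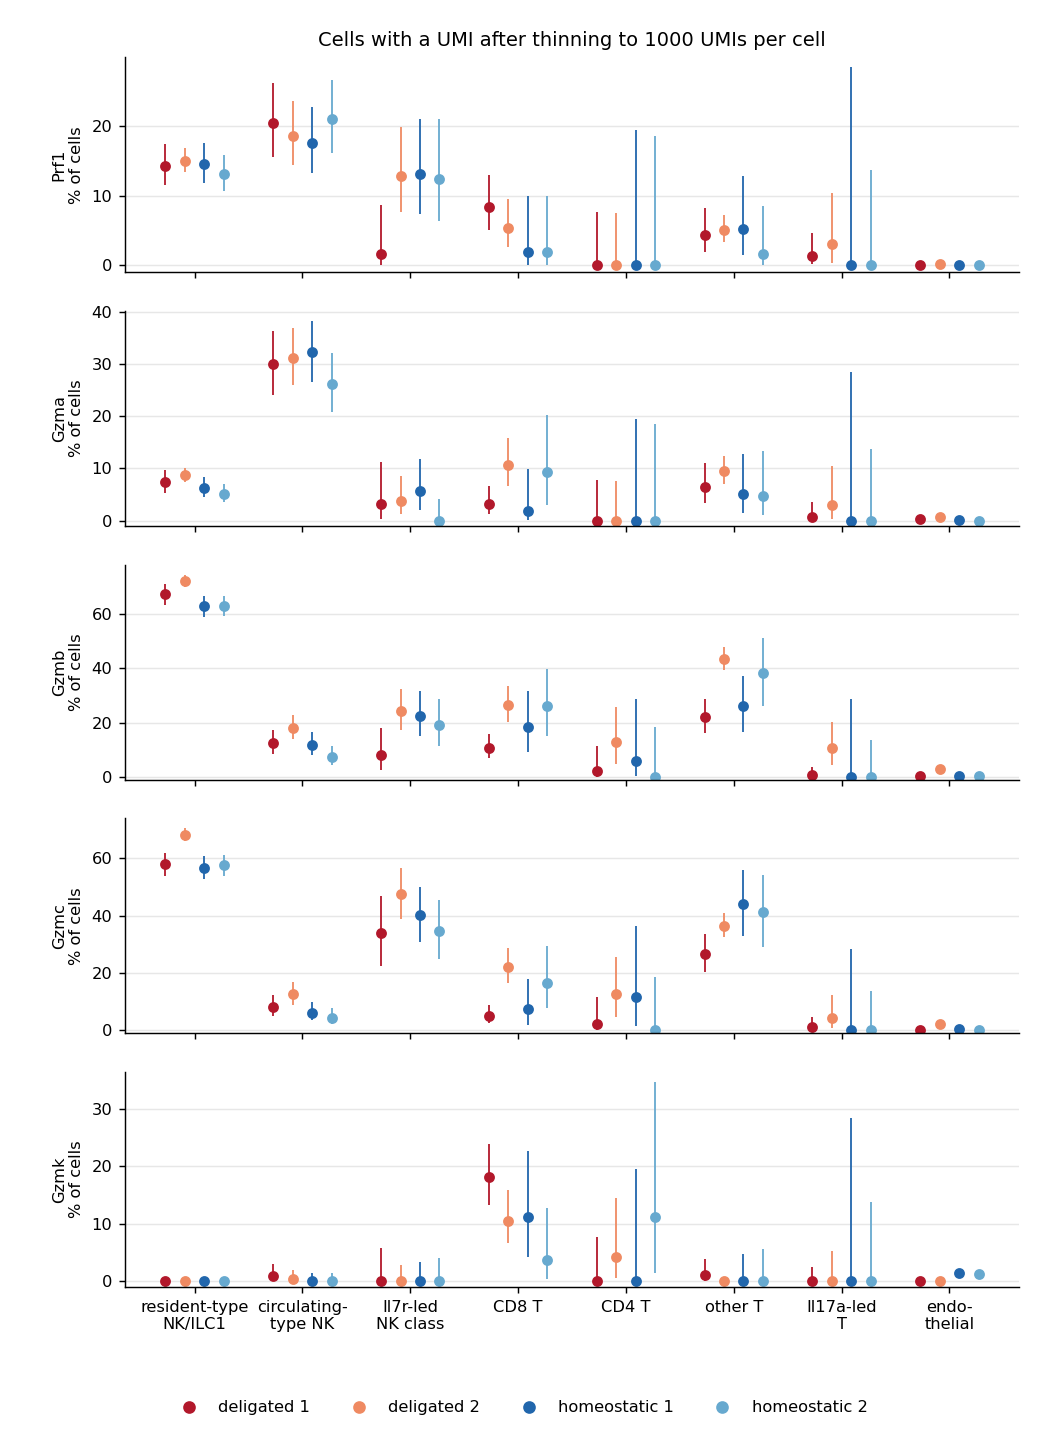
Share of cells with at least 1 UMI after thinning to 1000 UMIs per cell, in percent, for 5 members (rows) in 8 cell classes (x axis). Points are libraries and bars exact 95% intervals. Gzmb and Gzmc peaked in resident-type cells, Gzma and Prf1 in circulating-type cells. Gzmk was highest in CD8 T cells of 3 libraries and, on 18 cells, in CD4 T cells of homeostatic 2.

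Deligated and homeostatic libraries were then compared within each class. The groups' cells of a class mostly lay in different clusters. NK/innate lymphoid-like cells came from 1 cluster with 884, 2082, 13 and 9 cells and another with 2, 3, 992 and 1040, and T cell-like cells outside the Il17a-led cluster from 1 with 448, 749, 7 and 4 and another with 0, 0, 141 and 131. In the whole NK/innate lymphoid-like class, Gzma, the granule tryptase, rose in the deligated libraries and the other 4 tested members did not pass the test. Gzma stood at 779, 696, 557 and 448 TMM-normalized CPM (TMM, edgeR's scaling between libraries), with both deligated libraries above both homeostatic ones. Its log2 fold change was 0.55 (SE 0.12, adjusted p = 0.00595, edgeR's quasi-likelihood test with Benjamini-Hochberg adjustment over all genes). The share of Gzma-positive cells was 16.9 ± 0.62% in deligated and 17.1 ± 1.0% in homeostatic libraries (SD, n = 2 each), within 1 SD of each other. Gzmb stood at 1627, 2425, 1566 and 1553 CPM and Gzmc at 2116, 3011, 2042 and 2094, with deligated 2 alone well above the rest. Circulating-type cells, in which both genes were sparse, were 26.4, 14.2, 25.97 and 23.6% of the class, fewest in the same library. The part of this share in the Gzmb and Gzmc levels was not tested. The log2 fold changes of Gzmb and Gzmc were 0.38 (SE 0.16) and 0.31 (SE 0.15), with adjusted p of 0.0935 and 0.125 by edgeR. Prf1 (0.18, adjusted p = 0.163) and Gzmm (0.48, adjusted p = 0.346) did not pass edgeR's test either. So 1 of 5 tested members was called, beside 43.7% of all 11566 genes tested in this class and 16.7% called higher in deligated. Those higher numbered 1933, but 648 without homeostatic 1 and 751 without homeostatic 2. With the intron-length trend removed, Gzma had a log2 fold change of 0.31 and an adjusted p of 0.0818 by edgeR, and without homeostatic library 2 the adjusted p was 0.0595 at 0.42. In cells thinned to 1000 UMIs its log2 fold change was 0.28 (edgeR, adjusted p = 0.054). There, with 8103 genes tested, edgeR called Gzmb (0.45, adjusted p = 0.0106) and Gzmc (0.32, adjusted p = 0.0437). So other members passed in thinned cells, and why was not tested. Both Gzmb (0.65, adjusted p = 0.00137) and Gzmc (0.55, adjusted p = 0.00241) were called by edgeR without deligated 1, and without deligated 2 they had 0.07 and 0.047.

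In resident-type cells, Gzma, Gzmc and, by a narrow margin, Gzmb rose. Gzma stood at 709.7, 624, 502 and 378 TMM-normalized CPM, both deligated libraries above both homeostatic ones (log2 fold change 0.60, SE 0.13, adjusted p = 0.00478 by edgeR). These Gzma levels rest on few cells, with 53, 204, 52 and 54 positive. The 5% of cells with the most Gzma held 93.1, 86.7, 95.4 and 97.4% of its UMIs. Gzmc stood at 3010.1, 3389, 2698 and 2578 CPM, again without overlap (0.28, SE 0.08, adjusted p = 0.0161 by edgeR). Gzmb stood at 2372, 2888, 2250.1 and 2107 CPM, without overlap but with deligated 1 close to homeostatic 1 (0.27, SE 0.09, adjusted p = 0.0443 by edgeR). Prf1 (185, 175, 169 and 146 CPM) had a log2 fold change of 0.19 and did not pass (adjusted p = 0.142 by edgeR). These 3 calls among 4 tested members stand beside 41.8% of all genes called in the class and 16.1% called higher. Those higher numbered 1733, but 578 without homeostatic 1 and 567 without homeostatic 2. With the intron-length trend removed none of the 4 was called by edgeR: Gzma had 0.36 (adjusted p = 0.0607), and Gzmb and Gzmc had -0.02 and -0.0077 (adjusted p = 0.894 and 0.953). In double-precision sub-clusters Gzmb was not called (0.23, adjusted p = 0.0811 by edgeR), while Gzma (0.51, 0.017) and Gzmc (0.26, 0.0234) were, and under the stricter cell filter neither Gzmb (0.21, 0.0935) nor Gzmc (0.21, 0.0577) was. Gzmb was not called by edgeR at a finer clustering (0.0901), without doublet removal (0.0698) or in cells thinned to 1000 UMIs (0.051) either, where the numbers are adjusted p. Without homeostatic 2 no member was called by edgeR (Gzma 0.41, adjusted p = 0.0625), without homeostatic 1 neither Gzmb (0.112) nor Gzmc (0.0682) was, and without deligated 2 Gzmb had 0.13 (0.136) and Prf1 was called (0.24, 0.0289). Summed erythroid markers in these cells were 48.1, 715, 114 and 66.2 CPM, highest in deligated 2. Summed fibroblast markers (46.4, 117, 7.32 and 7.15 CPM, 8 genes) and mural markers (66.98, 87.1, 17.0 and 16.3 CPM, 8 genes) were higher in both deligated libraries than in both homeostatic ones, as they were in the whole NK class and in circulating-type cells. In resident-type cells summed plasma cell markers (340, 353, 226 and 205 CPM, 5 genes) were also higher in both deligated libraries, and epithelial markers (171, 201, 277 and 268 CPM, 8 genes) were lower. The part of these markers in the results was not tested.

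In circulating-type cells, Gzmb and Gzma rose. Gzmb stood at 313, 664, 248 and 141 TMM-normalized CPM, both deligated libraries above both homeostatic ones. Its log2 fold change was 1.33 (SE 0.27, adjusted p = 0.00115 by edgeR). These levels rest on few cells: the 5% of cells with the most Gzmb held 61.9, 63.5, 64.3 and 70.8% of its UMIs, and the median positive cell had 3 UMIs in every library. Gzma stood at 1025, 1334, 875 and 852 CPM, also without overlap (0.45, SE 0.12, adjusted p = 0.00815 by edgeR). Gzmc (258, 480.3, 266 and 470.4 CPM) differed more within each group than between them (0.0095, SE 0.24, adjusted p = 0.981 by edgeR), and Prf1 (257, 252, 246 and 229 CPM) had 0.10 (adjusted p = 0.574 by edgeR). The calls, 2 of 4 tested members, stand beside 31.1% of all genes called and 10.5% called higher. In these cells summed circulating-type markers (547, 608, 429 and 420 CPM, 10 genes) were higher in both deligated libraries. So were plasma cell markers (243, 254, 191 and 158 CPM, 5 genes), while epithelial markers (40.8, 48.7, 88.1 and 99.4 CPM, 8 genes) were lower. Their part in the calls was not tested. With the intron-length trend removed, Gzmb stayed called (1.00, adjusted p = 0.0148 by edgeR) and Gzma did not (0.19, adjusted p = 0.315), nor did Gzma in cells thinned to 1000 UMIs (0.24, adjusted p = 0.244) or without deligated 2 (0.27, adjusted p = 0.0848). For Gzmb, DESeq2 gave an adjusted p of 0.209, the stricter cell filter a log2 fold change of 0.35 (edgeR, adjusted p = 0.262), and leaving out deligated 2 one of 0.70 (adjusted p = 0.00173). Under that cell filter, in which the homeostatic groups held 384 and 348 cells in place of 261 and 248, Gzma had 1.14, Prf1 0.41 (adjusted p = 0.0114) and Gzmc -1.59, all called by edgeR. In double-precision sub-clusters Gzmc had 0.45 (edgeR, adjusted p = 0.148), and without deligated 2 Gzmc was lower (-0.49, adjusted p = 0.0334).

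**Figure D2:**
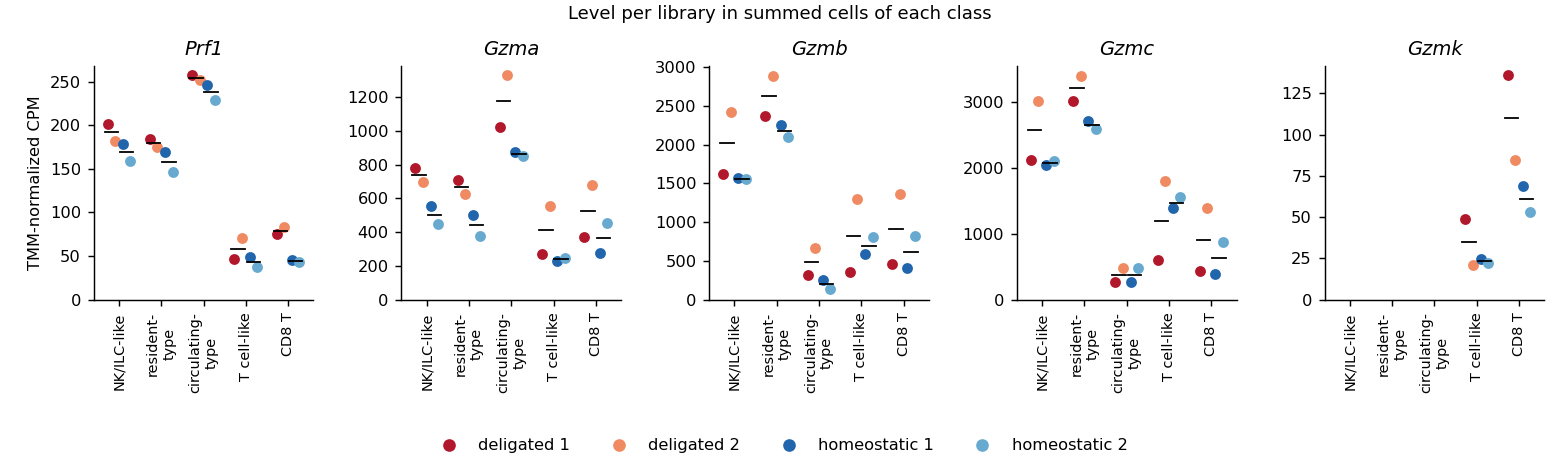
TMM-normalized CPM of 5 members in summed cells of 5 classes (x axis), 1 point per library and a black line at each group's mean. The Gzma points of both deligated libraries lie above both homeostatic ones in the 3 NK classes, while Gzmb and Gzmc in T cells differ most between deligated 1 and deligated 2.

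Granzyme transcripts were found in most resident-type cells and often together. After thinning to 1000 UMIs, 81.3, 86.5, 75.9 and 77.04% of resident-type cells had a UMI of at least 1 granzyme. Of Prf1, Gzma, Gzmb and Gzmc, exactly 2 were found in 41.2, 48.02, 42.7 and 40.9% of them and all 4 in 0.85, 0.79, 0.98 and 0.86%. Of the resident-type cells with Prf1, 85.7, 85.8, 79.8 and 72.5% also had a granzyme, and of the circulating-type cells with Prf1, 50.0, 63.6, 50.0 and 46.2%. Of all circulating-type cells, 40.6, 48.1, 42.15 and 33.1% had a granzyme at this depth, less than of those with Prf1 in every library. Of the resident-type cells with a granzyme, 15.1, 14.9, 15.3 and 12.3% had Prf1 at this depth, near the 14.3, 15.05, 14.6 and 13.06% of all resident-type cells.

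To compare pairs, the number of cells with both genes was divided by the number expected if the genes were placed independently among the thinned cells of a library. This ratio cannot exceed 1 over the larger of the 2 shares. Thinned Gzmb was in 62.7 to 72.2% of resident-type and 7.26 to 17.97% of circulating-type cells, so the ratios of different classes are not compared with each other. Means and SDs here are over the 4 libraries of both groups together, so the SD mixes spread within and between groups. In the whole NK class the ratio was 1.49 ± 0.17 for Gzmb with Gzmc (SD, n = 4 libraries) and 0.679 ± 0.192 for Gzma with Gzmc. Within resident-type cells Gzmb with Gzmc was at 1.18 ± 0.067, and Gzma with Gzmc was at 1.16 ± 0.132, on the other side of 1. In circulating-type cells Gzmb with Gzmc was at 3.19 ± 1.05, and Gzma with Gzmc was at 0.50 ± 0.349, below 1 in all 4 libraries. These circulating-type ratios rest on few cells. Thinned Gzmc was in 19, 37, 16 and 11 of them, and the Gzma with Gzmc ratio ran from 0 to 0.777. Prf1 was close to 1 with Gzmb (0.984 ± 0.032) and Gzmc (1.004 ± 0.044) in resident-type cells, and above 1 with Gzma (1.61 ± 0.347). At 2000 UMIs per cell Gzma with Prf1 in resident-type cells came to 1.13 ± 0.068. These ratios describe cells of shared libraries and were not tested.

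**Figure D3:**
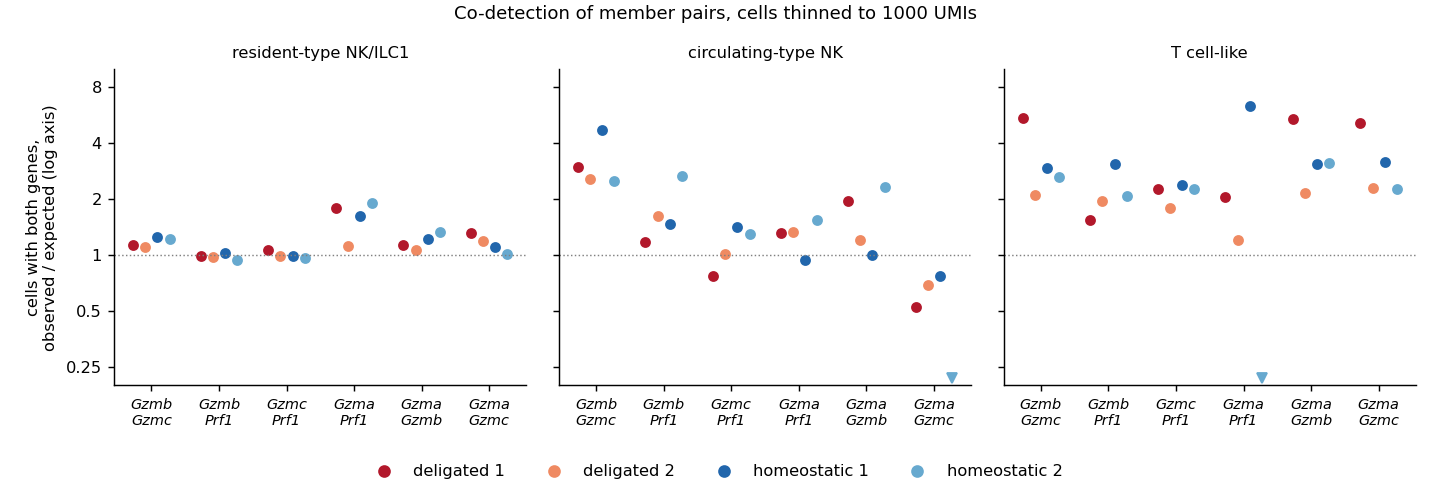
Cells with both genes of a pair, observed over expected, in cells thinned to 1000 UMIs (log axis, 1 point per library, dotted line at 1). Triangles at the lower edge mark 0 cells with both. Gzmb with Gzmc lies above 1 in every library of each class drawn. How far above 1 a ratio can lie depends on how common the genes are, so its height is not comparable between classes.

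CD8 T cells were T cell-like cells with a Cd8a or Cd8b1 UMI and no Cd4 UMI (215, 189, 54 and 54 cells). They were the main site of Gzmk among lymphocytes. Gzmk was detected in 37.7, 27.5, 27.8 and 25.9% of them (exact 95% intervals 31.2 to 44.5, 21.3 to 34.5, 16.5 to 41.6 and 15.0 to 39.7%), and after thinning in 18.1, 10.6, 11.1 and 3.7%. In NK/innate lymphoid-like cells it was in 0.68, 0.05, 0.50 and 0.48%, and in T cells without Cd4 or Cd8 in at most 0.91%. Gzmb was found in 23.3, 46.0, 24.1 and 40.7% of CD8 T cells, Gzmc in 7.9, 31.2, 14.8 and 25.9%, and Gzma in 8.8, 15.3, 3.7 and 11.1%. For these 3 genes library 2 of each group stood above library 1. Prf1 was in 28.8, 30.2, 22.2 and 16.7%, higher in both deligated libraries than in both homeostatic ones, with exact 95% intervals up to 27.4 points wide in this class.

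No member passed the test in CD8 T cells (0 of 5 called by edgeR, beside 17.9% of all genes tested and 4.74% called higher, and 0 by DESeq2), and 2 had an unadjusted p under 0.05. Prf1 stood at 74.7, 83.5, 45.7 and 42.5 TMM-normalized CPM, without overlap (log2 fold change 0.84, SE 0.29, adjusted p = 0.0514 by edgeR). Gzmk stood at 136, 84.5, 68.5 and 53.2 CPM, also without overlap (0.86, SE 0.30, adjusted p = 0.055 by edgeR). Both lie near the threshold, and edgeR called both with DESeq2's size factors (adjusted p = 0.0478 and 0.0491). Prf1 was also called without deligated 1 (0.94, adjusted p = 0.0413 by edgeR). Gzmk was also called with the stricter cell filter (edgeR, adjusted p = 0.0382), without doublet removal (0.0454) and without cells with Klrb1c or Ncr1 (0.0195). Those values rest on 16 Prf1 UMIs in each homeostatic library and on 24 and 20 Gzmk UMIs. Gzma (374, 683, 277 and 454 CPM), Gzmb (461, 1365, 408 and 826 CPM) and Gzmc (435, 1382, 383 and 869 CPM) overlapped between the groups, with log2 fold changes of 0.53 to 0.56 and adjusted p of 0.185 to 0.38 by edgeR. These 3 values rest on single libraries. Without deligated 1 all 3 were called by edgeR (Gzma 0.92, adjusted p = 0.00105, Gzmb 1.16, 4.09e-05, Gzmc 1.16, 9.18e-05), as they were without homeostatic 2 (0.91, 1.14 and 1.23). Without deligated 2 they had 0.043, -0.41 and -0.51 and without homeostatic 1 0.21, 0.13 and 0.054, none called. In cells with at least 2 Cd8a or Cd8b1 UMIs in place of 1, Gzma was called (1.63, adjusted p = 0.0469 by edgeR). With the intron-length trend removed, Gzmk, whose introns are long, was called (1.26, adjusted p = 0.0146 by edgeR), and in cells thinned to 1000 UMIs its log2 fold change was 0.12. For Gzmk, leaving out deligated 1 gave 0.50 and leaving out deligated 2 1.18, the latter called (edgeR, adjusted p = 0.00366).

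**Figure D4:**
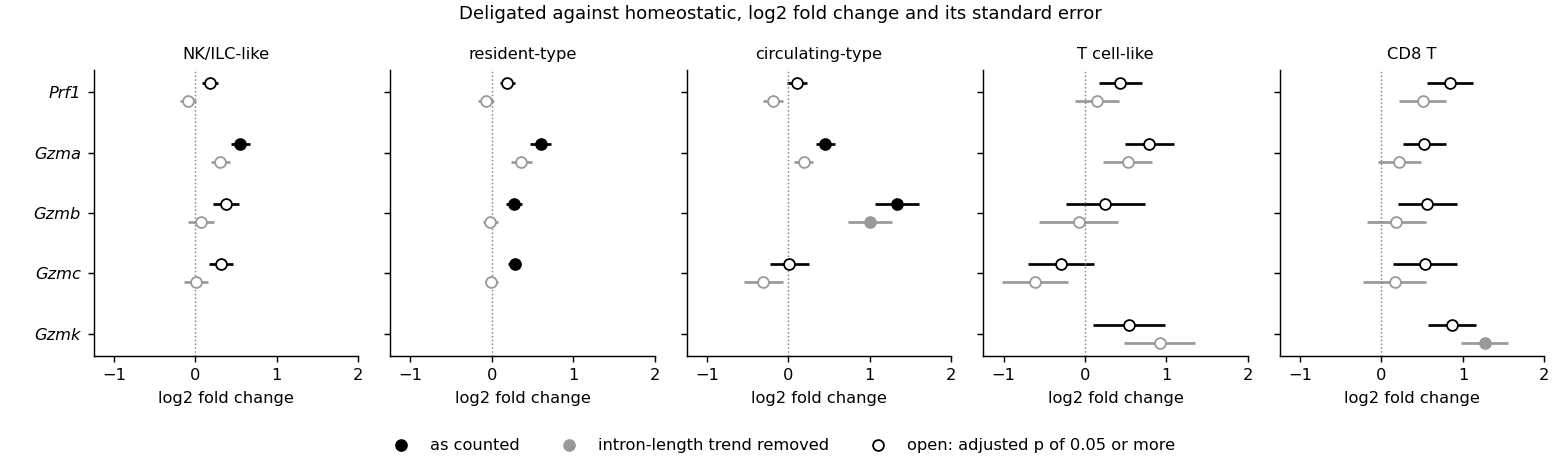
Log2 fold change (x axis, deligated over homeostatic) with its standard error for 5 members in 5 classes, as counted (black) and with the intron-length trend removed (grey). Filled points pass an adjusted p of 0.05. Removing the trend lowers Prf1, Gzma, Gzmb and Gzmc in every class and raises Gzmk.

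Gzmb and Gzmc UMIs in T cell-like cells sat largely in cells that also had a UMI of an NK receptor gene, Klrb1c (NK1.1) or Ncr1. Such cells were 22.3, 48.7, 34.0 and 29.4% of the T cell-like class. After thinning, Gzmc was found in 45.5, 53.7, 70.4 and 61.7% of them and in 0.65, 6.44, 1.90 and 5.36% of the other T cells. Gzmb was found in 35.1, 58.4, 48.2 and 57.5% against 4.3, 13.1, 4.76 and 9.82%, and Gzma in 11.9, 14.9, 7.41 and 8.51% against 0.86, 2.86, 0.95 and 3.57%. Gzma UMIs numbered 689, 2211, 217 and 114 in the cells with a receptor gene and 160, 226, 6 and 131 in the others, so in homeostatic 2 more of them lay in the others. Gzmk ran the other way, in 1.49, 0, 0 and 0% against 9.03, 5.25, 5.71 and 3.57%. Without thinning the Gzmc shares were 55.2, 71.3, 77.8 and 76.6% against 3.65, 17.4, 5.71 and 9.73%.

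Among CD8 T cells 22, 56, 7 and 13 had Klrb1c or Ncr1. Their Gzmc level was 2339, 3017, 1845 and 2217 CPM, against 6.05, 145, 18.9 and 18.5 CPM in the other CD8 T cells. Gzmb was found in 77.3, 83.9, 100 and 84.6% of the cells with a receptor gene and in 17.1, 30.1, 12.8 and 26.8% of the others, which are the larger group. Gzma stood at 1222, 1220, 1316 and 515 CPM with and 157, 251, 18.9 and 443 CPM without, nearly level in homeostatic 2. Prf1 differed less, at 67.9, 92.1, 57.2 and 48.1 CPM with and 65.5, 68.8, 45.3 and 41.6 without. Summed NK markers (12 genes) in CD8 T cells were 1586, 3880, 2312 and 3147 CPM, in the same order over libraries as the shares of cells with Gzmb and Gzmc, and stood at 10390 to 11833 CPM in the NK class. The part of NK cell transcripts in these values was not tested.

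**Figure D5:**
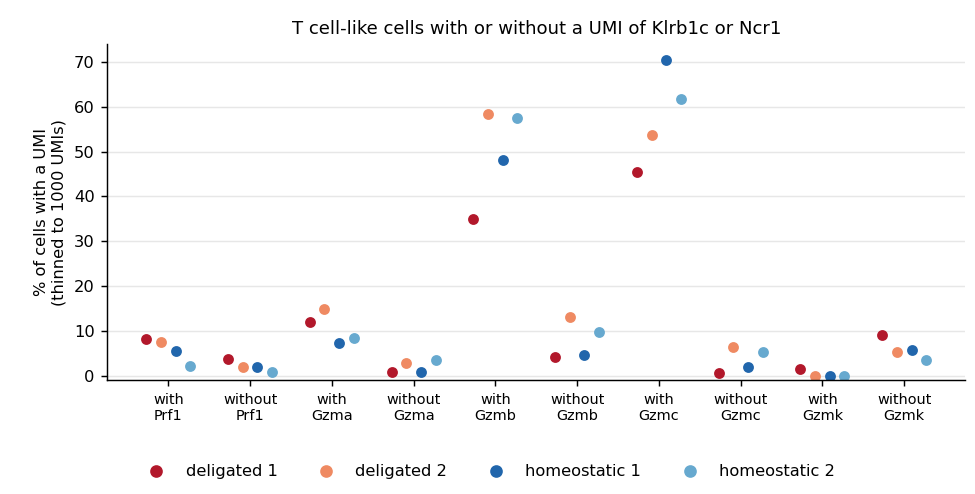
Percent of T cell-like cells with a UMI of each member after thinning to 1000 UMIs, for cells with and without a Klrb1c or Ncr1 UMI (x axis), 1 point per library. Gzmb and Gzmc lie at 35.07% or more in cells with the receptor genes and at 13.13% or less in cells without.

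CD4 T cells, those with a Cd4 UMI and no Cd8a or Cd8b1 UMI, were few (46, 47, 17 and 18 cells). A UMI of any member was found in 4.35, 46.8, 23.5 and 16.7% of them. Gzmb was in 2.17, 23.4, 17.6 and 5.56%, with exact 95% intervals from 0.055 to 11.5% in deligated 1 and from 3.8 to 43.4% in homeostatic 1. Gzmc was in the same shares. Deligated 2, the highest for both, also had the highest Gzmb share in endothelial-like cells, 11.42%. Prf1 had 2, 5, 2 and 0 UMIs, Gzmk 1, 3, 0 and 2 and Gzma 0, 1, 0 and 0. For Gzma 0 of 46 cells in deligated 1 allows a share of up to 6.52%, and 0 of 17 in homeostatic 1 up to 17.6%. No test was run, because the homeostatic libraries held under 25 CD4 T cells each.

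Among the T cells with neither Cd4 nor Cd8 UMIs, the cells outside the Il17a-led cluster (188, 519, 77 and 64) had Gzmb in 38.8, 62.4, 50.6 and 51.6% and Gzmc in 35.1, 53.95, 46.8 and 48.4%. A T cell whose Cd4 or Cd8 transcripts were not captured also falls here, so this group is not a T cell type. The Il17a-led cluster (152, 67, 11 and 25 cells), whose leading genes were Cd163l1 and Il17a with genes of the gamma-delta T cell receptor, had Gzmb in 1.97, 22.4, 9.09 and 4.0% and 0 Gzmk UMIs in every library. Its share of Gzmb in deligated 2 was 10.4% after thinning, above the 2.74% of endothelial-like cells.

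In the T cell-like class as a whole, 0 of 5 tested members passed edgeR's test, beside 18.6% of all genes tested and 4.53% called higher. Among the members 1 had an unadjusted p under 0.05 and DESeq2 called 1. Gzma stood at 268, 554, 228 and 249 TMM-normalized CPM (log2 fold change 0.79, SE 0.30, adjusted p = 0.114 by edgeR, 0.0456 by DESeq2). Gzmb (360, 1294, 592 and 804 CPM) and Gzmc (599, 1790, 1382 and 1552 CPM) were lowest in deligated 1 and highest in deligated 2, so the homeostatic libraries lay between the deligated ones. Summed NK markers in the class had the same order, 2346, 5207, 3759 and 3395 CPM, as far as the lowest and the highest library go, and their part was not tested. Without the Il17a-led cluster Gzma was called (0.90, adjusted p = 0.0161 by edgeR), and without the cells with Klrb1c or Ncr1 its log2 fold change was -0.38 (adjusted p = 0.77). With either deligated library left out 0 genes of the class were called by edgeR, although 2637 without deligated 1 and 2681 without deligated 2 had an unadjusted p under 0.05. Without deligated 1 Gzma was 1.23, and without deligated 2 it was 0.18.

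The difference of the deligation effect between the NK and T cell-like classes was tested with the library as a block. No gene of 12051 passed (0% called by edgeR, with 627 at an unadjusted p under 0.05, and 553 with DESeq2 size factors). Gzmc came nearest among the members, with an effect larger by 0.72 log2 units in the NK class (SE 0.24, adjusted p = 0.896 by edgeR). The other members had adjusted p of 0.911 or more, so no member was shown to respond differently in the 2 classes.

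The remaining members were rare. Gzmm, the granzyme that cuts after methionine, had 11, 24, 10 and 10 UMIs in NK/innate lymphoid-like cells and 20, 14, 0 and 1 in T cell-like cells, of which 14, 13, 0 and 1 were in CD8 T cells. Its share was 0.90 to 1.13% in the whole NK class, 0.34 to 0.65% in resident-type cells and 0.48 to 0.77% in endothelial-like cells. In circulating-type cells it was 3.42, 3.39, 0.77 and 2.02%, above the endothelial-like range in all libraries but homeostatic 1, on 8, 10, 2 and 5 cells. It did not pass the low-count filter there. Without that filter its log2 fold change was 1.60 (edgeR, adjusted p = 0.0461) and with the stricter cell filter 1.44 (0.0355), while DESeq2 gave an adjusted p of 0.509. Gzmf had 8 and 9 UMIs in the deligated NK cells, all of them in resident-type cells, and 0 in the homeostatic ones, where 0 of 1005 and 0 of 1049 cells allow shares of up to 0.299 and 0.286%. In the deligated libraries its shares were 0.564 and 0.432%, with exact 95% intervals of 0.183 to 1.31 and 0.198 to 0.818%. Gzmf did not pass the low-count filter. Without that filter edgeR called it higher in deligated libraries in the NK class (adjusted p = 0.0453) and in resident-type cells (0.00209), and DESeq2 did too (0.0421 and 0.0475). In resident-type cells edgeR's p-values in the fit without the filter were far smaller for other members as well (Gzma 3.5e-12 against 0.00478 with it, both adjusted), so that value is to be read with caution. Without homeostatic 1 edgeR did not call it (0.105 and 0.128). For Gzmd and Gzme 0 of 2085 cells in the largest NK library allows up to 0.144% of cells with a UMI. These limits concern detected UMIs, not expression, and the windows that these genes share with other granzymes add to the doubt.

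Gzmk had a further site outside the lymphocytes. In endothelial-like cells it had 1, 1, 243 and 189 UMIs, and in the homeostatic libraries 86.2 and 84.8% of all Gzmk UMIs lay there. Those UMIs lay mostly in the endothelial-like cells that also had Esm1, the gene on the opposite strand within the Gzmk model. Gzmk was detected in 0, 0, 14.1 and 12.6% of endothelial-like cells with an Esm1 UMI and in 0.088, 0.044, 0.441 and 0.743% of those without. Esm1 itself had 3950, 2686, 3681 and 3242 UMIs, abundant in both groups. The Gzmk counts of endothelial-like cells thus divide by Esm1 and by group, with which the Cell Ranger version changes, and whether they stand for Gzmk transcripts was not tested. In CD8 T cells the Gzmk share was 25.9 to 37.7% over the 4 libraries.

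Other genes of the granule pathway were read from the same fits, and rose or fell only where edgeR's adjusted p was under 0.05. The counts stand beside 43.7% of all genes called in the NK class, and 16.7% called higher. Among 12 genes of granule contents and their processing, 6 rose and 2 fell in the NK class (median log2 fold change 0.25, against 0.01 over all genes tested). M6pr, a receptor that carries granzymes to granules, rose by 0.55 and Ctsw, a granule cathepsin, by 0.51, while Gnptab, which makes the mannose-6-phosphate tag, fell by 0.85. Among 15 genes of granule transport and release, 2 rose and 5 fell (median 0.03). Dock8 fell by 1.96, Rab27a, which docks granules, by 0.79, and Ap3b1 by 0.75. The trend on intron length alone was -1.33, -0.36 and -1.37 at these 3 genes and -0.50 at Gnptab.

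In the same class, with 43.7% of all genes called, 3 of 7 serpin genes rose and 2 fell (median 0.35). Serpinb6b rose by 0.87, Serpinb6a fell by 0.77 and Serpinb1a by 2.73, where the intron trend was -0.67 at Serpinb6a and 0.24 at Serpinb1a. Of 12 death ligands, cytokines and chemokines 1 rose and 3 fell (median -0.13). Ccl5, a chemokine of cytotoxic cells, rose by 0.70, while Tnf fell by 1.70 and Tnfsf10, the death ligand TRAIL, by 0.33. Of 19 regulators 6 rose and 7 fell (median 0.01). Bach2, a repressor of effector genes, fell by 3.30, Il12rb2, a subunit of the IL-12 receptor, by 1.53 and Tbx21, the T-box factor T-bet, by 1.34. The intron trend was -1.77 at Bach2, -0.68 at Il12rb2 and 0.12 at Tbx21.

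In T cell-like cells 18.6% of all genes were called, against 43.7% in the NK class, and the lists' counts were lower too. Granule contents counted 0 up and 1 down of 12 (Gnptab fell by 0.96), transport 0 up and 4 down of 15 (Dock8 by 1.56 and Lyst by 1.12), serpins 0 up and 1 down of 6 (Serpinb6a by 0.66), and death ligands and cytokines 0 of 12. Regulators counted 3 up and 5 down of 19, with Bach2 lower by 3.44 and Stat5b by 1.65 (all log2, edgeR). In CD8 T cells, with 17.9% of all genes called, 3 of 11 death ligands and cytokines rose and 1 fell. These were Ccl4 (470, 853, 203 and 223 CPM), Ccl5 (9839, 8215, 5076 and 5538 CPM), Ifng (136, 123, 42.8 and 90.4 CPM) and, lower, Tnf (81.4, 83.5, 148 and 189 CPM), named after their values were seen. Against the 0 of 5 granzyme and perforin genes called there, this difference between the lists was not tested.

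The genes most like each member were ranked by Pearson's r of log2(CPM + 1) across 40 sums of cells, 1 per library and class, in 11 classes that share libraries. Prf1 was most like Klrb1c (0.956), Klre1 (0.942) and Klri2 (0.936). Gzmb was most like Cd7 (0.972), Xcl1 (0.971) and Ncr1 (0.96), and Gzmc like Klra1 (0.922), Cd7 (0.905) and Xcl1 (0.905). Gzma was most like Klrb1f (0.906), Fasl (0.906) and Eomes (0.903). Eomes, the T-box factor of mature NK cells, was found in 72.2 to 75.8% of circulating-type and 31.97 to 38.3% of resident-type cells, the same order as Gzma. Gzmk, Gzmm and Gzmf had too few UMIs to be ranked.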

How the data were processed

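The authors deposited raw UMI counts per gene and barcode as 10x matrices. They were made with Cell Ranger 6.0.1 (deligated) and 7.0.0 (homeostatic), per the file headers. The submitters' processing notes name Cell Ranger 6.0.1, Seurat and mm10. Whether intron reads were counted is not given in the sources used here. Of 31053 gene IDs, 30934 (99.6%) matched GENCODE M21.

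Barcodes with at least 300 genes and at most 10% mitochondrial UMIs were kept. Doublets were scored with Scrublet in scanpy 1.11.5, and the highest 0.8% per 1000 cells were removed (164, 563, 1098 and 1165). Cells were clustered with Leiden at resolution 1.0 on 3000 variable genes and 30 components, without granzyme genes and Prf1, and classes were named from marker lists (at least 3 markers). NK cells were sub-clustered within each group. Counts were summed per library and class, for classes with at least 25 cells in each library. Deligated and homeostatic sums were tested with edgeR 4.0.16 (glmQLFit and glmQLFTest, TMM, filterByExpr, Benjamini-Hochberg over all genes tested, threshold 0.05), with R 4.3.3. The fit was tested on simulated data. Thinning drew 1000 UMIs per cell without replacement. Shares have exact Clopper-Pearson 95% intervals, and a count of 0 allows 3 counts.

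Alternatives were DESeq2 1.42.0, its size factors, other count, cell, doublet, cluster and depth settings, leaving out each library, a replicate block and removal of the intron-length trend, and, added after the data were seen, left-out T cell subsets and sub-clustering in double precision. Named genes were all 9 members, per list the 3 genes with the smallest p in the NK class (up to 2 in T cells), and per member with at least 1000 UMIs the 3 most alike genes. Outside this rule, the 4 death ligand and cytokine genes called in CD8 T cells were named after their values were seen. The members and lists were chosen with earlier results of these data known. A marker gene of the circulating-type group is not reported here.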

Additional observations from a re-analysis of the deposited data

How the results depend on the processing

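Of the counts, shares and ratios recomputed under the alternatives, 126 values stayed near their main value and 55 moved. Of the values for single members, 260 kept direction and side of the threshold, 29 came to pass it, 22 no longer passed and 21 changed direction. Causes were not tested. With 2 libraries per group, leaving 1 out assumes that the lone library varies like the others.

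Genes called were 5051 (NK class), 4492 (resident-type), 2774 (circulating-type), 1798 (T cell-like) and 1269 (CD8). In that order DESeq2 gave 3273, 2712, 1288, 1020 and 479, and cells thinned to 1000 UMIs gave 2454, 1920, 745, 589 and 226. Removing the intron-length trend gave 1652, 777 and 474 in circulating-type, T and CD8 cells, and moved the share of called genes that were higher from 33.9, 24.4 and 26.5% to 47.0, 36.8 and 43.5%. DESeq2 moved it from 38.6 to 27.8% in resident-type and from 33.9 to 22.4% in circulating-type cells. No low-count filter gave 487 in CD8 cells. Leaving out 1 library gave 2799 to 5502, 2351 to 6050, 1984 to 2864, 0 to 746 and 687 to 1149.

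Members called were 1, 3, 2, 0 and 0. In the NK class DESeq2, no filter and thinning each gave 2 and trend removal 0. In resident-type cells trend removal gave 0 and the stricter cell filter 1. In circulating-type cells DESeq2, trend removal and thinning each gave 1 and the stricter cell filter 4. In T cells DESeq2 and leaving out the Il17a-led cluster (added after seeing the data) each gave 1. In CD8 cells DESeq2 size factors gave 2, and trend removal, the stricter cell filter, no doublet removal, a gate of 2 UMIs and leaving out cells with Klrb1c or Ncr1 (added after seeing the data) each gave 1. Leaving out 1 library gave 0 to 3, 0 to 3, 2 to 2, 0 and 0 to 4. Which cells joined a sub-cluster moved with numerical rounding, so double precision was added after seeing the data. It gave 2 members in resident-type and 2 in circulating-type cells.

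The replicate block gave 2 members in resident-type cells, 1 in T cells (Gzma) and all 5 tested in CD8 cells (edgeR, adjusted p = 0.0154 to 0.0393), and log2 fold changes of -0.0063 for Gzmc in circulating-type cells and -0.00447 for Gzmb in T cells. Nothing says that the numbers pair the libraries, and the correlation of same-numbered deviations was -0.20 in the NK class and -0.09 to 0.03 in the others.

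Direction changed with trend removal for Prf1 (-0.091 NK class, -0.073 resident-type, -0.19 circulating-type), Gzmb (-0.021 resident-type, -0.079 T) and Gzmc (-0.0077 resident-type, -0.31 circulating-type). In circulating-type cells it changed for Gzmc with the stricter cell filter (-1.59) and for Prf1 when thinned (-0.16). Without cells with Klrb1c or Ncr1 it changed for Gzma (-0.38) and Gzmc (0.81) in T cells and Gzmb (-0.017) in CD8 cells. Leaving out 1 library gave -0.49 to 0.47 for Gzmc in circulating-type cells, in T cells -0.17 to 1.06 for Gzmk, -0.94 to 0.90 for Gzmb and -1.28 to 0.30 for Gzmc, and in CD8 cells -0.41 to 1.16 for Gzmb and -0.51 to 1.23 for Gzmc. The deligated share of cells minus the homeostatic one moved to 0.88 points for Gzma in the NK class when thinned, and for Prf1 in CD8 cells to 4.98 points when thinned and 1.07 points at 2 UMIs or more. At 2000 UMIs observed over expected was 1.03 for Gzmb with Prf1 in the NK class and 1.64 for Gzmc with Prf1 in T cells. Without doublet removal no circulating-type class could be compared, and CD4 T cells were not tested.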
